A study of Mus musculus with 2 samples.

Results

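Interferon-stimulated genes are described here in sorted brain microglia of a mouse model of amyloid deposition. The group was a list of 38 genes taken by symbol, and 37 of them were rows of the count table of 32285 genes; *Mx1* was not analysed here. For each gene, expression at a tonic level across most cells was separated from expression limited to a small share of cells, library by library.

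Type I interferons bind a receptor made of IFNAR1 and IFNAR2, and the kinases JAK1 and TYK2 then activate STAT2, which enters the nucleus with IRF9 and switches on a wide set of target genes. Weak signalling without infection keeps some of these genes at a low, tonic level in many cell types. In the brain, microglia in which a large part of the programme is switched on form a small population in ageing and around amyloid plaques.

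The mice were APPswe/PS1δE9 (PSAPP), a line with transgenes for mutant APP and presenilin 1 that deposits amyloid plaques, and both groups carried the transgenes. Vehicle (VEH) or lemborexant (LEM, a drug that blocks both orexin receptors) at 30 mg/kg/day was gavaged daily from 9 to 10 months of age. Live CD45loCD11b+DAPI- cells were sorted from cortex and hippocampus of 1 hemisphere and sequenced as a 10x 5′ library, with the cells of 5 mice in each library. The number of mice of each sex in a pool is not given in the sources used here.

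The VEH library held 18374 cells and 116229678 counts of unique molecular identifiers (UMIs), and the LEM library 24392 cells and 160752298 counts, with medians of 5971 and 6034 counts per cell. Each treatment had a single library, so there was no replicate and no test. A difference between libraries is one between 2 pools of mice, and intervals in parentheses are exact 95% intervals that cover counting error only. Levels are summed counts per total count of the library, in the usual unit CPM. Shares of cells were taken after each cell was thinned to 2000 UMIs, which kept 17069 VEH and 23177 LEM cells. The 6 microglial markers were each detected in at least 98.4% of cells of both libraries. Cells were called female (*Xist*, no Y-linked count; 5686 VEH and 8409 LEM) or male (9025 and 11223), which parts the mice of a pool into sets that shared treatment and preparation. Cells with both signals (981 VEH, 5.34%; 1764 LEM, 7.23%) or neither (2682 and 2996) are in the values over all cells and in neither sex. Cell names carry a running number, so barcodes shared by the libraries were not counted.

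The promoters of these genes are shown first because the factor that holds STAT2 and IRF9 binds a known element, here searched as the letters GAAANNGAAA on both strands with overlaps allowed. The RefSeq windows (GRCm38.p6, 250 bases before to 50 after the start) held 29 members, of which 15 had a match, 11 of them before the start and 4 after it only, against 3.99% of the 27025 genes with a window (3.44% of all 32851 windows). A match is a description and not a bound site. *Usp18*, *Ifi204*, *Ifi27l2a*, *Rtp4*, *Dhx58*, *Zbp1*, *Parp14*, *Ly6e* and *Mx1* had no entry. The first 4 sequences belong to genes with 48.6% to 81.7% of their VEH counts in the few cells that held several genes of the programme (ISG-high cells, defined below), and the last 3 to genes with 8.31% to 17.0% there. Matches on either strand are in capitals, and each sequence is in the direction of the gene.
Ifit1, chr19:34640760-34640828, plus strand: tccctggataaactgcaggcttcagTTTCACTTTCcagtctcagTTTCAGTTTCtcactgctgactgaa
Ifit3, chr19:34583348-34583431, plus strand: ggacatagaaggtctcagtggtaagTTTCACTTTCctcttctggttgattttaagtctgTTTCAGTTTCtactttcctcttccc
Isg15, chr4:156200860-156200921, minus strand: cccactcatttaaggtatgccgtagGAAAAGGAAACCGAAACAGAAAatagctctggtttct
Rsad2, chr12:26456548-26456597, minus strand: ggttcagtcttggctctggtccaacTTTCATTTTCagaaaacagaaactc
Bst2, chr8:71537572-71537627, minus strand: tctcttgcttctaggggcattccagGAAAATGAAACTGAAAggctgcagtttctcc
Slfn8, chr11:83020834-83020883, minus strand: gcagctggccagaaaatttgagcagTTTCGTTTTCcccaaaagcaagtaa
Phf11b, chr14:59341356-59341405, minus strand: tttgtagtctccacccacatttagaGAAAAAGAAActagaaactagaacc

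These sequences were shown because they held a match, so they do not compare genes with a high and a low share in those cells. Genes without a match were also found at both ends. Examples are *Oasl1* (77.2% of VEH counts in ISG-high cells), *Cmpk2* (59.3%), *Irf9* (4.23%) and *Ifi35* (6.28%). *Ifit1* and *Ifit3* each had 2 matches before the start and *Isg15* had 3 that overlapped. The matched stretch of *Ifit3b* (chr19:34607744-34607827) was identical to that of *Ifit3*, and the longest protein-coding transcripts of that pair were identical at 98.0% of 1697 aligned bases (GENCODE M21), so the split of counts between *Ifit3* and *Ifit3b* is uncertain.

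*Ly6e*, which encodes a GPI-anchored surface protein that restricts the entry of some viruses, was the 1 gene of the list that was broadly expressed, with a count in at least 50% of thinned cells (3.04% in VEH and 3.12% in LEM of all 11910 genes found in 1% or more of the cells of a library). Its share was 52.2% in VEH and 78.4% in LEM, at 509 and 999 CPM. The VEH value was near the limit: by sex it was 56.9% in female and 49.2% in male VEH cells, and the gene was under 50% in VEH at 1000 UMIs or with at least 2 counts required. A cell held 0.98 *Ly6e* counts on average in VEH and 1.95 in LEM, and 10.9% and 30.0% of cells held 3 or more. Spread evenly over cells (a Poisson spread of the same mean), these counts would have reached 62.5% and 85.8% of cells, so *Ly6e* varied between cells somewhat more than even spread gives. The libraries differed across the whole distribution, with 47.8% of VEH cells and 21.6% of LEM cells at 0 counts.

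*Bst2* and *Ifi35* were intermediate, with a count in 10% to 50% of VEH cells. *Bst2* encodes tetherin, which holds budding virus particles at the membrane, and was found in 21.1% of VEH and 21.8% of LEM cells, at 140 and 151 CPM. *Ifi35*, a leucine zipper protein induced by interferon, was found in 11.6% and 12.8% of cells, at 62.1 and 68.3 CPM. Its shares were 0.996 and 0.982 of those of an even spread, the nearest to even among the 37 genes. *Ifi27l2a*, a small hydrophobic protein induced by interferon, lay on the border between classes, with a share of 7.74% in VEH and 10.98% in LEM. *Slfn8*, of the Schlafen family, did so too, with 9.62% and 11.5%. The other members were limited, with 34 of 37 under 10% of cells in VEH and 32 of 37 in LEM. Past the same 1% limit, these were 30 of 33 (71.4% of all genes) and 28 of 33 (71.1%). The class rests on depth and limits, with 18 and 17 of 37 in deposited counts and 22 and 20 with limits of 25% and 5%. Here a low share has 2 readings, a low level in many cells or a high level in few. The share that an even spread would give parts these where positive cells often hold more than 1 count. Where positive cells mostly hold 1 count, both readings come near it.

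**Figure D1:**
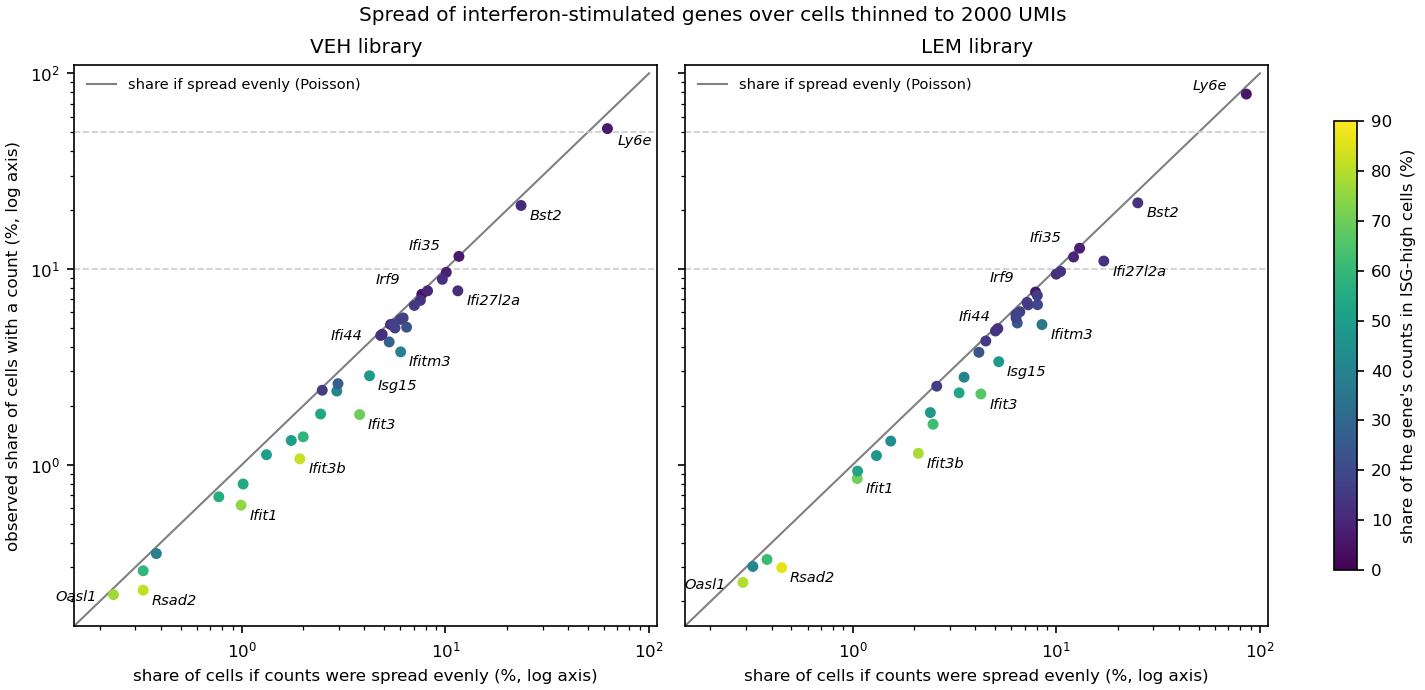
Observed share of thinned cells with a count (vertical, %) against the share that an even spread of the same counts would give (horizontal, %), both on log axes, for 37 genes in the VEH and LEM libraries; colour gives the share of a gene's counts held by ISG-high cells, the grey line marks equality and the dashed lines the class limits of 50% and 10%. *Ifi35* and *Irf9* sit on the line, while *Ifit3*, *Ifit3b*, *Isg15*, *Ifitm3* and *Ifi27l2a* fall below it.

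In 16 VEH and 17 LEM genes the observed share was at least 0.9 of the even one. This does not by itself show counts spread over many cells, since *Oasl1* (0.926 in VEH) and *Samd9l* (0.925) were among the 16. So were the transcription factors that carry the interferon signal. *Irf9*, the DNA-binding part of the complex, was found in 7.43% of VEH and 7.63% of LEM cells (38.7 and 41.4 CPM), at 0.971 and 0.965 of the even share. *Stat2*, its partner, was found in 4.58% and 4.29% of cells (22.9 and 23.2 CPM), at 0.952 in both libraries. The cytosolic RNA sensors behaved alike: *Ddx58* (RIG-I) was at 0.969 and 0.961 of the even share, *Ifih1* (MDA5) at 0.949 and 0.961, and *Dhx58* (LGP2) at 0.968 and 0.975. *Eif2ak2*, which encodes the RNA-activated kinase PKR that halts translation, was at 0.947 and 0.942, *Slfn8* at 0.953 and 0.948, and *Rnf213*, a large ubiquitin ligase, at 0.918 and 0.926. At their low levels an even spread would have reached hardly more cells than were found.

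In 8 genes of each library the observed share was under 0.7 of the even one. *Ifit3*, of the family of proteins that bind foreign RNA ends, had the lowest ratio, 0.476 in VEH and 0.540 in LEM, and reached 1.80% and 2.30% of cells where an even spread would have reached 3.79% and 4.26%. *Ifit3b* was at 0.557 and 0.544, *Ifitm3*, which blocks virus entry at endosomes, at 0.626 and 0.612, and *Isg15*, the ubiquitin-like modifier, at 0.672 and 0.645. *Ifi27l2a* was at 0.673 and 0.642. *Oasl1*, found in 0.217% and 0.250% of cells, was at 0.926 and 0.867, with 1.08 and 1.16 counts per positive thinned cell. *Rsad2* had like shares, 0.228% and 0.298%, but was at 0.698 and 0.665, with 1.44 and 1.51 counts per positive cell.

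To locate the gathered counts, cells were scored by how many of 12 core members had a count in the thinned cell: *Ifit1*, *Ifit2*, *Ifit3*, *Ifit3b*, *Isg15*, *Usp18*, *Rsad2*, *Oasl1*, *Oasl2*, *Ifi44*, *Cmpk2* and *Rtp4*. Cells with at least 3 were called ISG-high. This is a range on a score and not a cell type: 275 VEH and 522 LEM cells lay just under the limit with 2 core genes, and 99 and 202 just inside it with 3. The highest score was 12 of 12 in both libraries. Below, a core gene's own count was left out of the score (3 of the other 11). The core genes were chosen to rise together, so higher levels in ISG-high cells are a description and no finding.

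ISG-high cells were 294 of 17069 cells in VEH (1.72%, 1.53–1.93) and 539 of 23177 in LEM (2.33%, 2.14–2.53). Their median depth, 6318.5 and 6407 counts, was near that of the other cells, 6183 and 6172.5. They were microglial by their markers, with a median of 6 of 6 microglial markers inside and outside. *P2ry12*, the purinergic receptor of homeostatic microglia, had medians of 7 (VEH) and 6 (LEM) thinned counts in ISG-high cells and 8 in the others.

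The share of a gene's counts that ISG-high cells held ordered the 37 genes along 1 scale, though the cell sets were not the same. With its own count left out, a core gene had fewer such cells, 233 (VEH) and 400 (LEM) for *Rtp4* against 294 and 539 for other genes. *Ifit3* and *Ifit3b*, near copies, each stayed in the score of the other. At the high end, ISG-high cells held 82.5% (VEH) and 78.3% (LEM) of the *Ifit3b* counts, 81.7% and 86.4% of those of *Rsad2*, which encodes viperin, 77.2% and 79.3% of *Oasl1*, 74.7% and 70.4% of *Ifit1*, 69.8% and 66.4% of *Ifit3*, and 59.1% and 62.4% of *Ifit2*. *Cmpk2*, the mitochondrial nucleotide kinase next to *Rsad2*, had 59.3% and 61.5%. *Irf7*, the factor that amplifies interferon production, had 53.7% and 53.4%, in contrast to its relative *Irf9* at the low end with 4.23% and 5.30%. At that low end were also *Ly6e* (6.28% and 5.37%), *Ifi35* (6.28% and 8.17%), *Slfn8* (8.31% and 9.29%), *Eif2ak2* (10.5% and 11.05%), *Rnf213* (12.3% and 13.1%) and *Stat2* (13.8% and 15.4%). A low share here is not evenness: *Ly6e* was at 0.835 of the even share in VEH and *Ifi27l2a*, with 12.1% inside, at 0.673.

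Family members differed along this scale, and some sets mix core and other genes. *Oasl1*, *Oasl2*, *Isg15* and *Usp18* are core genes, while *Oas1a* and *Herc6* are not, so contrasts between them are not independent of the score. Of the Schlafen genes, *Slfn5* had 54.4% (VEH) and 47.8% (LEM) of its counts in ISG-high cells, *Slfn2* 16.7% and 17.9%, and *Slfn8* 8.31% and 9.29%. In the 2-5A synthetase family, which senses double-stranded RNA, *Oasl1* and *Oasl2* (50.2% and 48.2%) lay above *Oas1a* (26.8% and 23.4%). Of the nucleic acid sensors, *Zbp1*, which binds Z-form nucleic acid, had 55.4% and 52.4% and *Ifi204*, a DNA sensor, 49.9% and 44.5%, while *Dhx58* had 16.0% and 16.6%, *Ifih1* 11.8% and 13.5%, and *Ddx58* 10.6% and 12.99%. In the ISG15 system, *Isg15* had 48.6% and 48.3% and *Usp18*, the protease that removes ISG15 and restrains the receptor, 41.1% and 39.4%, against 15.2% and 15.8% for *Herc6*, the mouse ISG15 ligase. Among membrane effectors, *Ifitm3* (40.0% and 35.6%) lay above *Bst2* (10.9% and 12.8%) and *Ly6e*. The genes not yet placed ran from *Samd9l* (38.8% and 41.8%) through *Ifi44* (27.7% and 24.6%), *Rtp4* (22.9% and 19.5%), *Sp100* (17.3% and 17.7%), *Phf11b* (17.0% and 18.3%), *Xaf1* (16.1% and 16.9%) and *Parp14* (14.0% and 15.9%) to *Ifi27l2a* (12.1% and 13.1%).

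**Figure D2:**
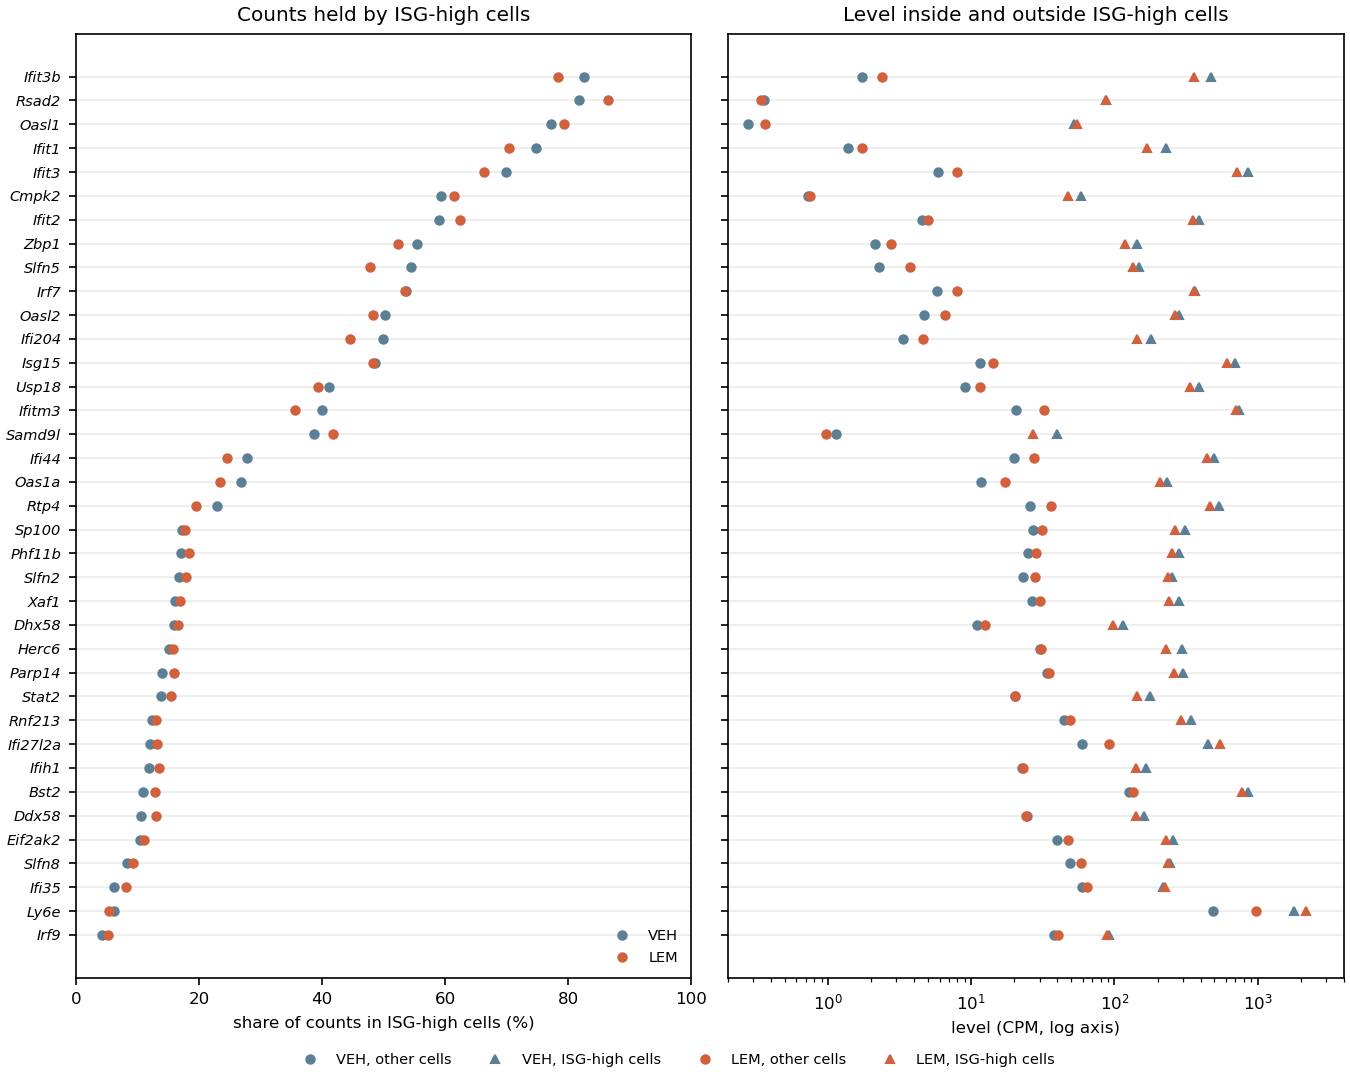
Left, share of each gene's counts held by ISG-high cells (%); right, CPM of each gene in ISG-high cells (triangles) and in the other cells (circles, log axis), for VEH (blue) and LEM (orange). Genes run from *Irf9* (4.23% in VEH) at the bottom to *Ifit3b* (82.5%) at the top, and every triangle lies to the right of its circle. A core gene was left out of its own score.

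All 37 genes were higher inside than outside, by 2.43-fold (*Irf9*) to 276-fold (*Ifit3b*) in VEH and by 2.21-fold (*Irf9*) to 254-fold (*Rsad2*) in LEM. Of the 33 members found in 1% or more of the cells of a library, 33 were at least 2-fold higher in both, where 3.14% of all genes were in VEH and 1.97% in LEM; nothing is read from this, since the split was made with these genes. Outside ISG-high cells, *Ly6e* remained at 487 (VEH) and 972 (LEM) CPM and *Bst2* at 127 and 135 CPM. *Isg15* remained at 11.4 and 14.1 CPM, where it was 691 and 614 CPM inside, and *Ifit3* at 5.84 and 7.90 CPM against 853 and 718 CPM. *Rsad2* was at 0.356 and 0.341 CPM outside and 87.9 and 86.6 CPM inside, and 8.94% and 10.9% of ISG-high cells held it at this depth.

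Droplets with choroid plexus epithelium markers (130, of which 31 VEH and 99 LEM, median depth 8809.5) were used as a level of free RNA. After thinning, 13 members had no count in them. A share of 2.31% would be only 3 of the 130 droplets, so low shares can be missed, and this value is not an exact interval. No count after thinning is no absence, since in the full droplets *Ifit3* had 5 counts, *Irf7* 4 and *Slfn5* 3. *Isg15* was at 1.68 CPM there (2 counts). *Irf9* was found in 3.85% of them, *Ifi35* in 6.92% and *Ifi27l2a* in 4.62%, all below their shares among the sorted cells. The sensors were present there too, on few counts. In VEH droplets *Eif2ak2* was at 41.5 CPM (12 counts) and *Ifih1* at 24.2 CPM (7 counts), above the 39.7 and 22.5 CPM of VEH cells outside the ISG-high range, while *Ddx58* was at 13.8 against 24.5 CPM. In LEM droplets the levels were 24.3, 13.3 and 16.6 CPM, against 47.0, 23.1 and 24.1 CPM. *Xaf1* and *Herc6* were both at 13.8 (VEH) and 19.9 (LEM) CPM in droplets, against 26.7 and 30.3 CPM for *Xaf1* and 30.1 and 30.8 CPM for *Herc6*. Free RNA and expression in the droplet cells cannot be told apart in these values. By share, 5 genes were as high or higher there than in the VEH library: *Ly6e* (78.5%; 1236 CPM), *Bst2* (33.8%; 225 CPM), *Ifitm3* (9.23%; 46.1 CPM), *Rtp4* (5.38%, against 5.04%) and *Cmpk2* (0.769%, against 0.287%). *Cmpk2* rests on 1 count in 1 LEM droplet, and against the LEM library (6.57%) *Rtp4* was lower, which leaves 4 genes. By CPM *Slfn5* was too (2.51, against 2.26 CPM outside ISG-high VEH cells) and *Rtp4* was not. With the droplets parted by library, *Ly6e* was at 1182 (VEH) and 1253 (LEM) CPM, against 487 and 972 CPM in cells outside the ISG-high range. Epithelium can express such genes itself, and its part in the shares of these genes was not tested. Its markers (7 of 8 measured) also differed between the libraries, with a summed level of 437 CPM in VEH and 1319.5 CPM in LEM. Without choroid plexus and border macrophage marker cells, the LEM over VEH log2 ratio of *Ly6e* was 0.98 and that of *Ifitm3* 0.55.

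The share of ISG-high cells differed between the libraries by a log2 ratio of 0.43 (0.23–0.64), and the sexes differed in this. Among female cells, 1.12% (0.858–1.44) of the VEH and 2.73% (2.38–3.10) of the LEM cells were ISG-high, a log2 ratio of 1.28 (0.87–1.72). Among male cells the shares were 2.06% (1.78–2.39) and 1.98% (1.73–2.26), a log2 ratio of -0.06 (-0.35 to 0.23). Under the limit, cells with 1 or 2 core genes were 9.99% (VEH) and 18.3% (LEM) of female cells and 11.6% and 9.19% of male cells. In ISG-high cells the female VEH pool was thus the lowest of the 4 and the female LEM pool the highest. In cells just under the limit the female LEM pool was again the highest, and the male LEM pool was the lowest. Each pool is a small set of mice, and mouse, sex and treatment cannot be told apart in it.

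**Figure D3:**
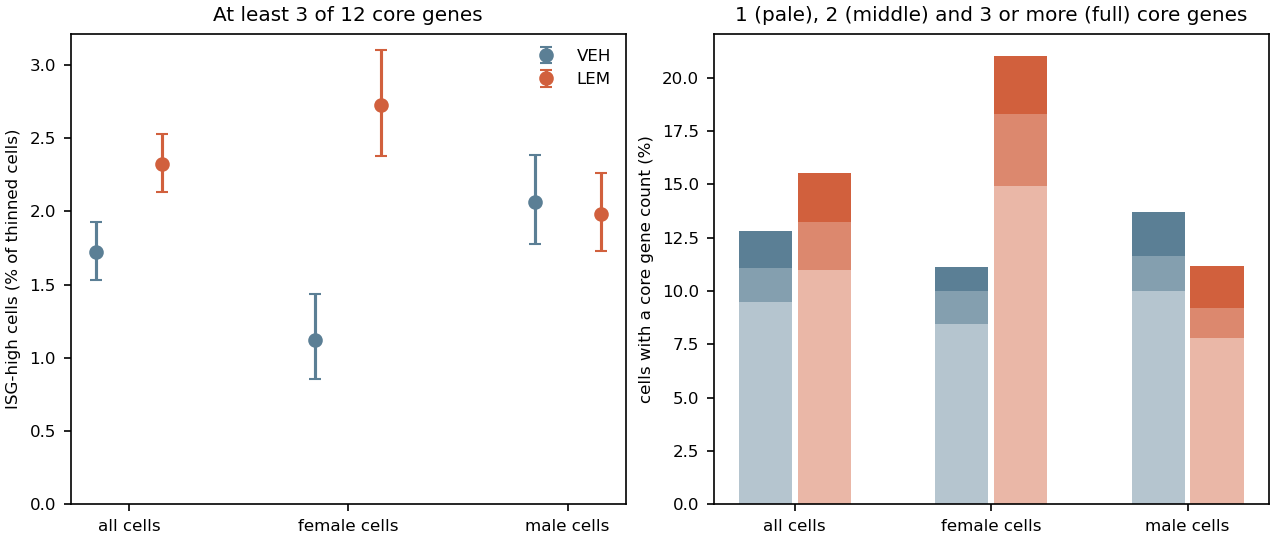
Left, ISG-high cells as a share of thinned cells (%) with exact 95% intervals; right, cells with 1 (pale), 2 (middle) and at least 3 (full) of the 12 core genes as a share of thinned cells (%), VEH in blue and LEM in orange, for all cells and by sex. The intervals of female cells, 0.858–1.44 in VEH and 2.38–3.10 in LEM, do not overlap and those of male cells do.

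Over all cells, 36 of the 37 genes were above 0 in LEM over VEH, with a median log2 ratio of 0.25, beside a median of 0.01 and 56.1% above 0 for the 11910 genes found in 1% or more of the cells of a library. Most of these differences were small. A log2 ratio of at least 0.5 was reached by 5 of the 37, and by 4 of the 33 past that limit (1.62% of all genes), and of -0.5 or less by 0 (1.24%).

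*Ly6e* stood highest. Its 59106 counts in VEH and 160608 in LEM gave a log2 ratio of 0.97 (0.96–0.99). By pool it was at 581 CPM in female and 463 CPM in male VEH cells, and at 929 and 1042 CPM in LEM. Both LEM pools lay above both VEH pools, and the difference between the libraries was larger than that between the sexes of a library. Female cells had a log2 ratio of 0.68 and male cells of 1.17.

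*Ifi27l2a* followed with a log2 ratio of 0.62 (0.58–0.66), from 66.4 to 102 CPM. Its pools were at 57.3 CPM (VEH, female), 70.9 (VEH, male), 151 (LEM, female) and 60.1 (LEM, male). The high value was in a single pool, with log2 ratios of 1.40 (female) and -0.24 (male). *Ifitm3* had 0.56 (0.50–0.61), with 26.2, 36.95, 55.4 and 40.1 CPM in the same order, and ratios of 1.08 and 0.12. *Slfn5* had 0.51 (0.36–0.66), with 3.20, 5.63, 7.23 and 6.23 CPM, and 1.17 and 0.15. *Oasl1*, detected in under 1% of cells, had 0.52 (0.22–0.82), with 1.04, 1.30, 1.94 and 1.27 CPM, and 0.90 and -0.03. In these 4 genes the female VEH pool was the lowest and the female LEM pool the highest.

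At the other end, *Samd9l*, an antiviral protein, was the 1 gene below 0, with a log2 ratio of -0.18 (-0.45 to 0.09). It was also the 1 gene lower in LEM in female cells, with 2.46 CPM in female and 1.15 CPM in male VEH cells and 1.29 and 1.82 CPM in LEM. *Ddx58* (0.00), *Stat2* (0.02), *Herc6* (0.03) and *Ifih1* (0.05) were nearly level, each with an interval that spans 0.

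**Figure D4:**
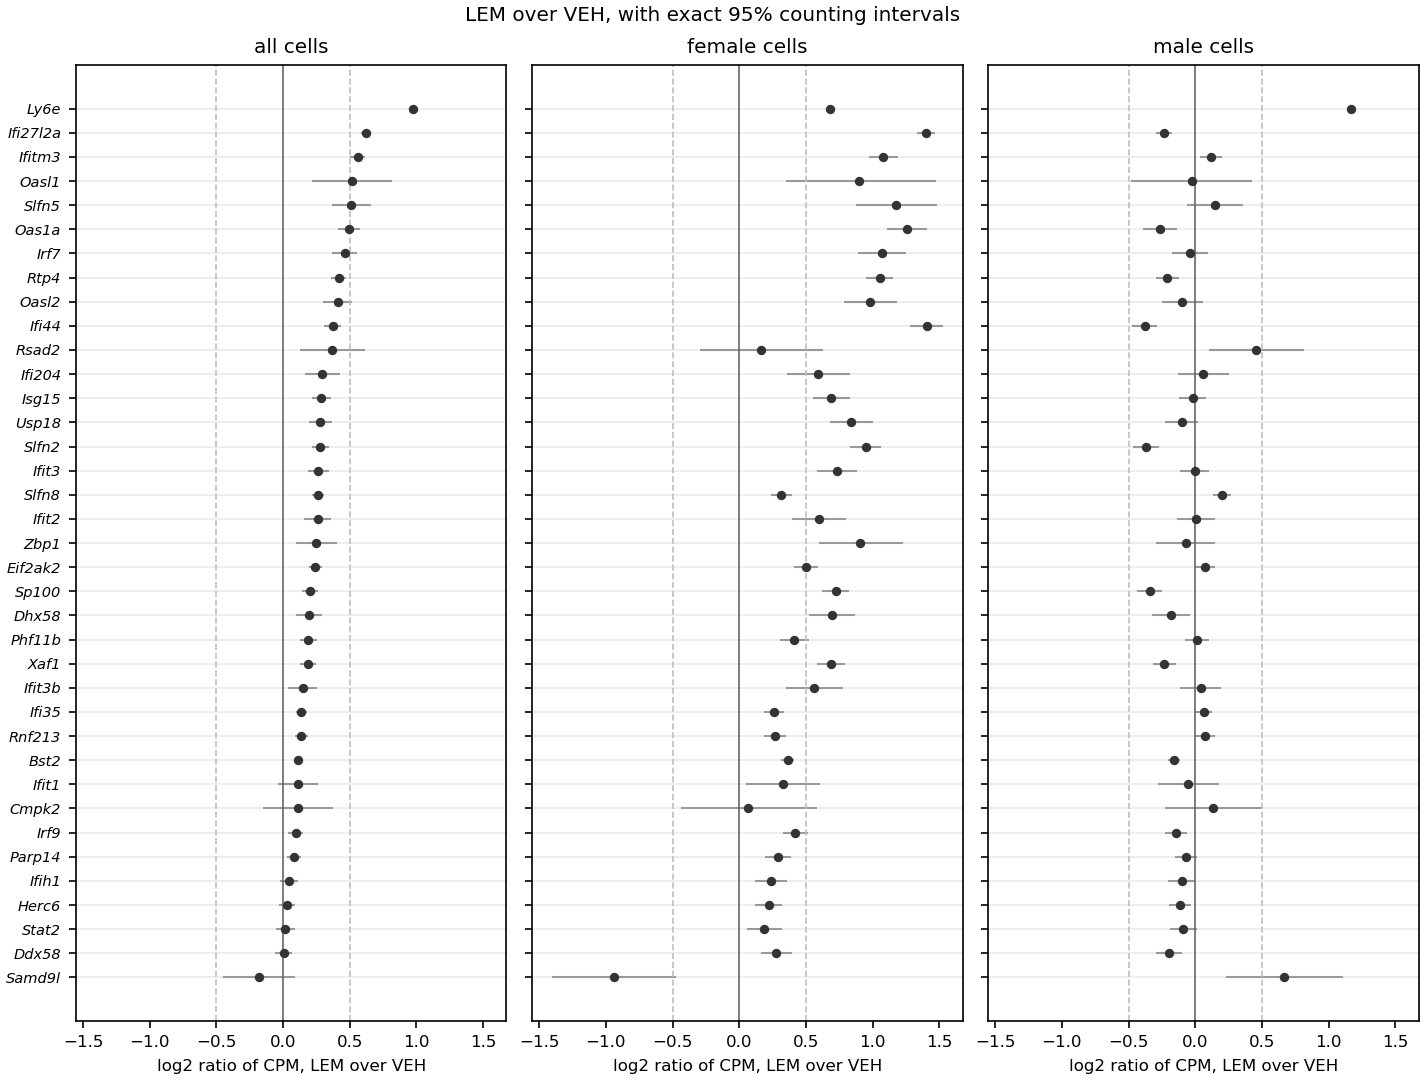
Log2 ratio of CPM, LEM over VEH, for 37 genes in all cells, female cells and male cells; bars are exact 95% counting intervals and dashed lines mark -0.5 and 0.5. The median was 0.25 in all cells; in female cells 36 genes lie to the right of 0, and in male cells 23 lie to the left, with *Ly6e* at 1.17.

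Split by sex, the list stood higher in LEM in female cells and near level in male cells. The median log2 ratio over the 37 genes was 0.60 (female) and -0.05 (male), with 36 and 14 genes above 0, beside 0.00 and 0.02 over all genes, of which 50.6% and 58.7% were above 0. In female cells 20 of the 33 detected genes reached 0.5 (3.03% of all genes) and 0 reached -0.5 (2.44%). In male cells 1 of the 33, *Ly6e*, reached 0.5 (2.86%) and 0 reached -0.5 (2.12%). The sexes moved in opposite directions, with intervals on different sides of 0, in 14 of the 37 genes (8.9% of all genes). *Ifi44*, which encodes a cytoplasmic protein, had the widest gap, with 18.5 and 31.9 CPM in female and male VEH cells and 49.1 and 24.5 CPM in LEM. *Rtp4*, a receptor transporter, had 28.9 and 35.2 CPM in VEH and 60.1 and 30.4 CPM in LEM. *Sp100*, of the nuclear bodies, had 29.8 and 33.5 CPM in VEH and 49.3 and 26.4 CPM in LEM.

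The sexes within a library are pools under the same treatment, but they differ in sex as well as in mice. The paper states that plaques develop earlier in females. A difference between them is thus not a measure of the spread between like pools. In VEH, 9 of the 33 genes were lower in female than male cells by at least 0.5 (2.25% of all genes) and 0 were higher (3.13%). In LEM, 11 of the 33 were higher in female cells (2.13%) and 0 lower (1.91%). Female VEH cells were the lowest of the 4 pools for 28 of the 37 genes (30.7% of all genes) and female LEM cells the highest for 31 (23.3%). In 31 of the 37 genes, the larger of the sex differences of the 2 libraries exceeded the difference between the libraries, as it did in 75.3% of all genes. In 11 of the 37, both LEM pools lay above both VEH pools, where 22.7% of all genes did so: *Ly6e*, *Ifitm3*, *Slfn5*, *Slfn8*, *Eif2ak2*, *Ifi204*, *Ifit3b*, *Rsad2*, *Phf11b*, *Rnf213* and *Ifi35*.

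**Figure D5:**
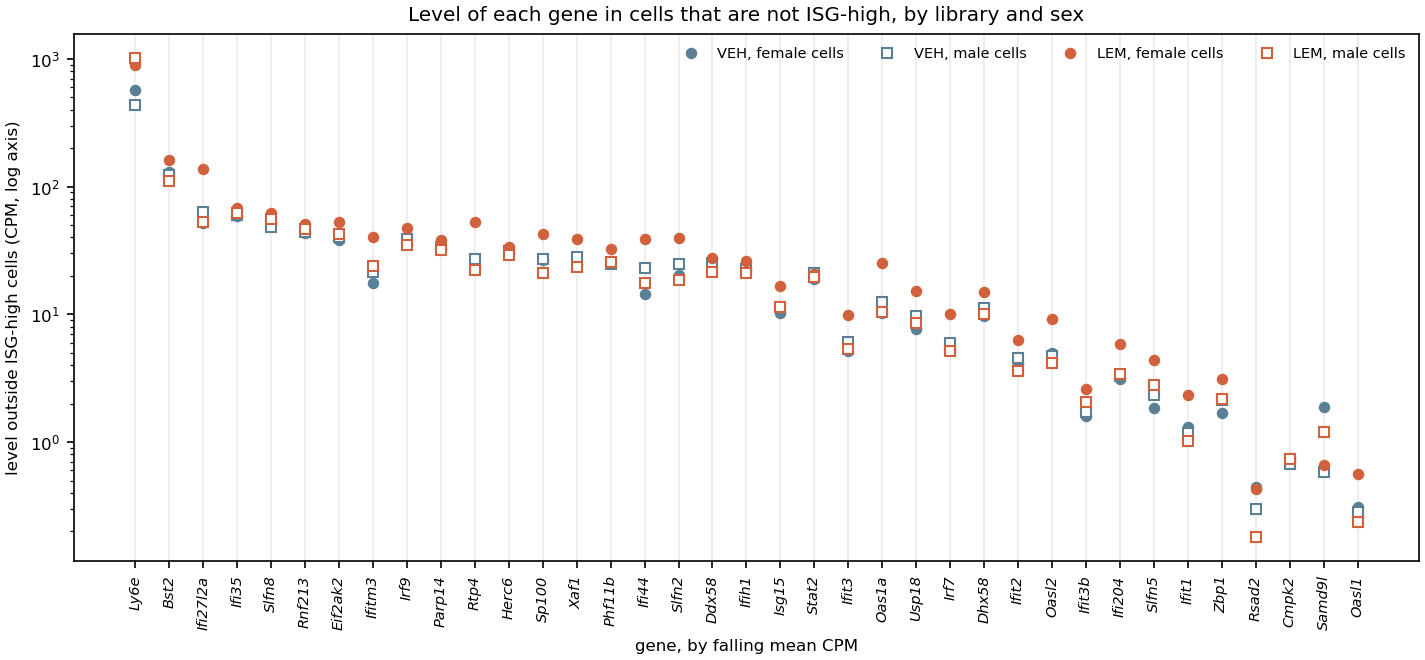
CPM of each gene in cells that are not ISG-high (log axis), in female (filled) and male (open) cells of VEH (blue) and LEM (orange), with genes by falling mean CPM. Female LEM cells are the highest of the 4 pools for 33 of 37 genes, and *Ly6e* is higher in both LEM pools than in both VEH pools.

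Female LEM cells were also high outside ISG-high cells. There, they were the highest of the 4 pools for 33 of the 37 genes (23.3% of all genes). The larger part of the LEM minus VEH difference lay outside for 29 of the 37, a smaller share than the 91% of all genes. For *Ly6e* the cells outside accounted for 470 CPM of the difference and ISG-high cells for 21.8 CPM. For *Ifi27l2a* the 2 parts were 30.3 and 5.40 CPM, for *Rtp4* 10.0 and 1.03 CPM, and for *Ifi44* 7.12 and 1.19 CPM. They were about equal for *Isg15* (2.59 and 2.30 CPM) and *Ifit3* (1.98 and 1.93 CPM), while *Ifit2* differed mainly through ISG-high cells (0.431 and 1.68 CPM). These are core genes, as are *Rtp4* and *Ifi44*, and each was left out of its own score. Their part outside thus includes cells with exactly 3 core genes that held the gene. It was not taken over the same cells as for *Ly6e* and *Ifi27l2a*. Within ISG-high cells, levels were lower in LEM for 33 of the 37 genes (48.9% of all genes), such as *Ifit1* (231 and 169 CPM) and *Ifit3b* (473 and 358 CPM). *Ly6e* (1791 and 2173 CPM) and *Ifi27l2a* (449 and 542 CPM) were higher there too. The cells were picked with genes of this list, so the share over all genes is not a like background here. Because the limit is a score, the cells inside it in the 2 libraries need not be alike, and 202 of 539 LEM against 99 of 294 VEH cells were just inside it. A score of 6 or more was held by 158 of the 539 LEM and 112 of the 294 VEH cells.

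Microglia in 2 other states also differed in these genes, with ISG-high cells left out of both sides. Cells with at least 3 markers of disease-associated microglia (DAM; 146 VEH and 205 LEM), the state around plaques, held more *Ifi27l2a* than the other cells (251 against 56.9 CPM in VEH; 316 against 87.6 CPM in LEM), more *Oasl2* (17.99 against 4.04; 22.6 against 5.69 CPM), more *Ifitm3* (58.0 against 19.9; 94.0 against 31.4 CPM) and more *Bst2* (237 against 126; 262 against 133 CPM). They held less *Slfn8* (29.3 against 49.2; 33.5 against 59.0 CPM) and less *Irf9* (log2 ratios of -0.55 and -0.49). Intervals also lay below 0 for *Ifih1* (-0.70), *Herc6* (-0.75) and *Eif2ak2* (-0.44) in VEH, and for *Ddx58* (-0.51), *Parp14* (-0.46) and *Rnf213* (-0.31) in LEM. Log2 ratios were above 0 for 22 of 36 genes in VEH and 26 of 37 in LEM, and the share of all genes above 0 is not given. The median log2 ratio of the members was 0.38 over 36 genes in VEH and 0.52 over 37 in LEM, where that of all genes was -0.33 and -0.36. These cells were deeper, with medians of 10030 and 11066 counts against 6170 and 6156, and CPM is a share of a cell's counts; the part of depth was not tested.

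Cells with at least 3 proliferation markers (100 VEH and 154 LEM, medians of 9976 and 10560 counts) differed from the other cells in both directions. *Ly6e* was at 1357 CPM in VEH and 1855 CPM in LEM, against 479 and 962 CPM in the others, and *Ifi27l2a* at 295 and 580 CPM, against 57.3 and 85.6 CPM. *Slfn2* was at 53.6 and 53.9 CPM against 22.7 and 27.5 CPM, and *Stat2* at 33.1 and 33.5 CPM against 20.0 in both libraries. *Oasl2*, *Ifi204*, *Bst2*, *Dhx58*, *Phf11b* and *Eif2ak2* were also higher in both libraries with intervals above 0. In the LEM library, the proliferating cells were lower than the others, with intervals below 0, in *Ifit3* (log2 ratio of -1.89, on 3 counts), *Ifi44* (-1.32; 10.2 against 25.4 CPM), *Rtp4* (-0.73), *Ddx58* (-0.64), *Ifih1* (-0.57) and *Ifi35* (-0.33), and in the VEH library in *Irf9* (-0.58). Over the list, 25 of 35 genes in VEH and 22 of 36 in LEM were above 0, with median log2 ratios of 0.48 and 0.14, where those of all genes were 0.06 and 0.02. The share of all genes above 0 is not given, so the counts have no background beside these medians.

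Beyond the list, the 15 genes with the highest ratio inside over outside ISG-high cells, among 6182 candidates, were *Ifi208*, *Iigp1*, *Ifi211*, *Cxcl10*, *Ifi47*, *Ifi213*, *Tgtp2*, *Gbp6*, *Ifi207*, *Phf11a*, *Oas1g*, *Helz2*, *Ifi209*, *Ifi44l* and *Gm4951*. *Cxcl10*, the chemokine that draws T cells, had the most counts of the first 4, at 396 (VEH) and 344 (LEM) CPM inside and 2.71 and 2.35 CPM outside. *Iigp1*, a GTPase that attacks parasite vacuoles, was 467-fold and 199-fold higher inside. They were ranked on this split, so their ratios are a description.

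Of 84 other gene symbols listed for the pathway, 80 were measured and 66 passed the 1% limit. The symbols *Sting1*, *Mb21d1*, *Mx2* and *Oas1b* had no row. Of the 66, 4 were higher by at least 0.5 (1.62% of all genes) and 0 lower (1.24%). Their median log2 ratio over the 66 was 0.06 (0.16 in female and 0.01 in male cells). The 4 higher genes were *Ccl5* (2.54), a chemokine found in 0.473% of VEH and 1.22% of LEM cells, *Oas1g* (1.23), *Oas2* (0.85) and *Ifitm2* (0.60). All 4 were found in under 1% of VEH cells and passed the limit only through the LEM library. The count of 4 thus rests on genes let in by the library in which they were higher. The log2 ratios in female and male cells were 3.67 and 1.22 for *Ccl5*, 1.95 and 0.30 for *Oas1g*, 1.57 and 0.29 for *Oas2*, and 0.28 and 0.51 for *Ifitm2*, whose ratio over all cells, which include those without a sex call, lay above both. The 5 receptor chains had a median of 0.04, and *Ifngr1*, of the interferon-gamma receptor, was at 692 and 718 CPM. *Irf8*, a lineage factor of microglia, was at 480 and 499 CPM, *Lgals9* at 363 and 390 CPM and *Tmem173*, which encodes the DNA-sensing adaptor STING, at 361 and 354 CPM. *Ifnar2* was at 312 and 342 CPM, with a like level inside and outside ISG-high cells (1.07-fold and 1.08-fold). Of the interferons, *Ifnb1* had 0 counts in VEH and 19 in LEM, *Ifna4* 0 and 0, and *Ifng* 1 and 0. The *Ifnb1* counts came from 0.0287% of the LEM cells, too few to compare the libraries.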

How the data were processed

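UMI counts of 2 libraries (VEH and LEM, 1 of 5 pooled mice each) were analysed; groups are from the sample labels. The authors ran Cell Ranger 8.0.0 on the mm10 transcriptome (5′ reads) and stated a free-RNA correction (SoupX) and cell filters on genes, counts and mitochondrial share. The deposited values are whole UMI counts, and whether the correction is in them is unknown. Cells were kept as deposited, doublets included.

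The members and gene lists were chosen with earlier results of these data known. Summed counts were divided by library totals (CPM, with no length term, since 5′ UMIs mark molecule ends). Exact Poisson intervals of ratios and Clopper-Pearson intervals of shares have a confidence level of 95%. No log2 ratio was formed where both sides held at most 3 counts, or where either side had no count. Classes were broad (at least 50% of cells thinned to 2000 UMIs), limited (under 10%) and intermediate. Cells shallower than that (1305 VEH, 1215 LEM) were left out of shares.

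Values in full were set for *Ifi27l2a*, *Ifitm3* and *Ly6e*, the 6 highest by CPM of each class, and the 5 highest and 5 lowest ratios among members with at least 100 counts; pathway genes by the 4 highest CPM and 4 largest ratios; and 15 genes most like the ISG-high split with at least 50 counts inside. Other members named by role were chosen after their values were seen. Coordinates are GRCm38. Tools were scipy 1.17.1, numpy 2.4.6, pandas 2.3.3, Biopython 1.88 and matplotlib 3.10.9 in Python 3.11.15, and the ratio, interval and spread steps were tested on simulated data. The alternatives were other scalings, cell sets, thinning depths, score limits and filters.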

Additional observations from a re-analysis of the deposited data

Results flagged for a closer look

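In 14 of the 37 genes the female and male cells moved in opposite directions from VEH to LEM, with intervals on different sides of 0 in counting error; that the effects differ between the sexes was not tested, since each sex of a library is a single pool. Of all genes found in 1% or more of the cells of a library, 8.9% met the same rule, and 13 of the 33 members past that limit did. In 13 of them female cells were higher in LEM. The log2 ratios in female and male cells were 1.40 and -0.38 for *Ifi44*, 1.40 and -0.24 for *Ifi27l2a*, 1.25 and -0.27 for *Oas1a*, 1.05 and -0.21 for *Rtp4*, 0.95 and -0.37 for *Slfn2*, 0.72 and -0.34 for *Sp100*, 0.69 and -0.23 for *Xaf1*, and 0.69 and -0.18 for *Dhx58*. They were smaller for *Irf9* (0.42 and -0.15), *Bst2* (0.36 and -0.16), *Ddx58* (0.28 and -0.20), *Ifih1* (0.24 and -0.10) and *Herc6* (0.22 and -0.12). *Samd9l* went the other way, with -0.94 in female and 0.66 in male cells.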

How the results depend on the processing

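No paired analysis was possible because each group has 1 library and the labels carry no replicate numbers. The ISG-high shares in VEH and LEM were 3.33% and 4.58% with at least 2 of the 12 core genes, 1.14% and 1.45% with at least 4, 1.99% and 2.87% with at least 5 in deposited counts, and 2.04% and 2.55% with at least 2 in cells thinned to 1000 UMIs. The LEM share was higher in each. The median log2 ratio of the 33 detected genes was 0.25, against 0.68 (female cells alone) and -0.074 (male cells alone). The number at 0.5 or more, 4, was 7 with the sexes weighted equally, 20 with female cells and 1 with male cells. It was 3 with median of ratios size factors, the mean over cells, totals without the 20 most abundant genes, *Xist*-and-Y cells left out, or thinning. *Slfn5* was under 0.5 in each of these (0.497, 0.480, 0.4997, 0.484 and 0.368). *Slfn5* and *Oasl1* were each under 0.5 in 6 of 10 settings. From male cells alone *Oasl1* was at -0.029 and *Ifi27l2a* at -0.24. In VEH 0 genes were broad at 1000 UMIs, with at least 2 counts required, or in male cells alone. Limited genes were 18 (VEH) and 17 (LEM) in deposited counts and 22 and 20 with class limits of 25% and 5%. The median share of a limited gene's counts in ISG-high cells, 27.3% (VEH) and 30.1% (LEM), was 36.1% and 39.8% with at least 2 core genes, 21.7% and 23.1% with at least 4, 32.1% and 38.3% in deposited counts, 21.2% and 25.6% in female and 29.8% and 33.2% in male cells. The other 61 settings moved these results by no more than counting error or 1.5 times. Without replicate libraries, no setting speaks to variation between mice, and genes under 1% of cells rest on few positive cells.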

Other observations

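Few cells carried markers of border-associated macrophages (8 in VEH and 30 in LEM with at least 3 markers, ISG-high cells left out). They were set against the other cells of their library. Log2 ratios were above 0 for 27 of 29 genes with a ratio in VEH and 28 of 34 in LEM, with medians of 2.01 and 1.66 where those of all genes were 0.16 and -0.06. Genes with 0 counts in these cells had no ratio, such as *Xaf1* and *Phf11b* in VEH (26.7 and 25.1 CPM in the other cells). This leaves out the lowest genes, and 1 count in the 8 VEH cells was already 17.9 CPM. Both the counts above 0 and the medians are therefore tilted upward, and the share of all genes above 0 is not given. *Ifitm3* was at 536 CPM in VEH and 564 CPM in LEM in the macrophage marker cells, against 20.2 and 31.6 CPM in the rest. *Bst2* was at 571 and 620 CPM, against 127 and 134 CPM. *Ly6e* was at 571 and 959 CPM, against 487 and 972 CPM, so the gene with the widest difference between the libraries did not stand apart in these cells.

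Without *Ly6e* and *Bst2*, a thinned cell held a median of 1 of the other members in each of the 4 pools of sex and library. Cells with at least 4 of them were 6.09% of female and 7.72% of male VEH cells and 14.6% of female and 6.97% of male LEM cells, and the most in 1 cell was 27 in VEH and 29 in LEM. These shares have no replicate.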
